A study of Mus musculus with 32 samples.

Results

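The 9 B cell genes Cd79a, Cd79b, Blk, Ms4a1, Cd22, Cd180, Cr2, Pax5 and Fcrla were followed in mouse liver across diet and exposure to E171, the food-grade titanium dioxide sold as a white food colour. They were chosen by name, with every non-control array probe carrying 1 of these 9 gene names taken as a member, which gave 19 of the 56605 non-control probes. Of these 19 probes, 15 were well above background on at least 6 of 8 arrays in at least 1 group, out of 35777 such probes in all. They measured 8 of the 9 genes, among 23656 genes tested, and Blk was not tested.

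Total liver RNA of 32 mice was hybridised to 1-colour Agilent arrays, 1 array per mouse, to ask whether diet alters the response of the liver to E171. All mice were males of the F1 generation of C57BL/6J dams, killed at 21 weeks of age, and the labels name no engineered allele. The first group (n = 8) was fed a Western diet from 5 weeks of age for 16 weeks and E171 in the pellets at a target dose of 10 mg per kg body weight per day. The second (n = 8) was fed the same Western diet without E171. The third (n = 8) was fed a normal diet with E171 at the same target dose, and the fourth (n = 8) a normal diet without E171. E171 offspring came from dams that had eaten E171 for 40 days before mating, and control offspring from unexposed dams. The labels call the richer diet both Western and high fat. They do not say which mice were littermates, so p-values describe the spread between mice taken as independent, and E171 exposure began in the dam and was not separated here into parental and own exposure.

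B cells recognise antigen through a membrane immunoglobulin that signals through the paired chains encoded by Cd79a and Cd79b, and Src-family kinases such as Blk relay the signal. The strength of the signal is set by surface proteins that raise it, such as the complement receptor Cr2, or restrain it, such as the sialic acid-binding receptor Cd22. The liver holds few B cells beside its hepatocytes and macrophages, and those present come largely from the blood. In RNA of a whole organ, more cells of a type and more RNA per cell cannot be told apart.

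Levels are log2 probe intensities relative to the 75th percentile of the same array, which stands at 0, and a level of 1 probe is not set against that of another. The arrays had 32164 to 37261 probes well above background, none had a saturated spot, and their correlation within groups ran from 0.980 to 0.995. As a check of the tissue, all 8 hepatocyte genes examined, among them Alb, Apoa1 and Cps1, were well above background on all 32 arrays. A gene with several probes is represented by its brightest kept probe in tests over genes, and each kept probe was also tested on its own.

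The sequences below are shown because probes of the same gene gave different results. For Cd22 and Pax5 the capitals mark the codons of a known protein motif, the tyrosine-based inhibitory motif of the Cd22 tail and the octapeptide of Pax5. In the Cd22 repeat probe they mark the 4 copies of CCAA in a row. Where a probe may lie outside the coding sequence, 30 of its 60 bases are given, and exon and UTR boundaries were not used here.
Cd22 tail probe A_51_P448140: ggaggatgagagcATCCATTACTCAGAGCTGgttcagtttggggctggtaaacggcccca
Cd22 repeat probe A_55_P2016004: aaCCAACCAACCAACCAAacaaaaaacaac
Cd180 probe 1 A_55_P2935501: tcataaactccttttgcatatacctgatga
Cd180 probe 2 A_55_P2935500: aatgtatgcttagcatgtgctaggtcctgg
Cd180 probe 3 A_52_P258617: gcacttgctcaaacatttactttttagaat
Cd180 probe 4 A_66_P117296: ctgggctgggggttcactgagcttttctga
Cd79b probe A_51_P342652: agagacttgttggaatctgcaaatggactc
Ms4a1 probe A_55_P2802151: cagaaatgtaatgggttcccagatctcaaa
Pax5 octapeptide probe A_66_P128859: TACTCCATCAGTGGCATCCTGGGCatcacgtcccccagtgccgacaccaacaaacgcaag

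In the mm9 coordinates of the array files, the Cd22 tail probe lies on the minus strand at chr7:31651590-31651649 and the repeat probe downstream of it at chr7:31651249-31651308. The repeat probe has 22 distinct triplets of bases, against a median of 36 over all 60-base probes, and 0.359% of all probes have as few. The run of 4 CCAA copies, searched on both strands, stands in 4 of the 56605 probes, or 0.00707%. The Cd180 probes lie on the plus strand of chromosome 13. Probe 1, at chr13:103494224-103494283, and probe 2, at chr13:103494284-103494343, adjoin each other and are assigned in the files to a cDNA clone. Probe 3, at chr13:103496269-103496328, and probe 4, at chr13:103496617-103496676, are assigned to the Cd180 messenger RNA and start 2045 and 2393 bases after probe 1. The Cd79b probe lies at chr11:106172780-106172839, the Ms4a1 probe at chr19:11325409-11325468 and the Pax5 octapeptide probe at chr4:44692322-44692381, all on the minus strand.

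Detection differed widely among the members. Cd79b, Ms4a1, Cr2 and Pax5 each had at least 1 probe that was well above background on all 32 arrays, as had Cd22 and Cd180. The single Cd79a probe, whose 60 bases span 258 bases of the genome and so cross an intron, was well above background on 7 and 5 of 8 arrays on the Western diet with and without E171. On the normal diet it was well above background on 5 of 8 arrays with E171 and 3 of 8 without. The single Fcrla probe reached 8, 7, 7 and 6 of 8 arrays in the Western E171, Western control, normal E171 and normal control groups. Blk, with 1 probe crossing an intron, was not well above background on any of the 32 arrays. The same held for 1 of 4 Cd22 probes and 1 of 3 Cr2 probes, and the second Pax5 probe cleared background on 1 of 8 arrays in each Western diet group and on 0 on the normal diet. No fold change is given for these 4 probes.

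On the Western diet, liver RNA carried more Cd79b and Cd180 signal than on the normal diet, with E171 and without it. By limma over all 23656 genes (Benjamini-Hochberg adjusted p below 0.05), 3 of the 8 members tested rose under E171 (Cd79b, Cd180 and Fcrla) and none fell, where 22.2% of all genes rose and 31% fell. Without E171, 2 members rose (Cd79b and Cd180) and 1 fell (Pax5), where 18.5% of all genes rose and 28.7% fell. With so many genes changed, these counts are no result about the members as a set. The median difference over the 8 members was 0.22 under E171 and 0.20 without it on the log2 scale, against -0.10 over all genes in both comparisons. Over the other settings this median ran from 0.01 to 0.27 under E171 and from -0.05 to 0.24 without it, lowest with normexp background correction. The members were chosen with earlier results known, so nothing is read from these medians.

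Cd79b, the signalling chain without which the B cell receptor does not reach the surface, had levels from -0.45 to 0.56 (median 0.10) in Western E171 mice, against -1.13 to -0.12 (median -0.63) in normal E171 mice. Without E171, its levels ran from -1.21 to 0.23 (median -0.33) in Western mice, against -1.61 to -0.45 (median -0.99) in normal diet mice. Of the Western mice, 7 of 8 with E171 and 6 of 8 without it lay above the highest normal diet mouse of the same exposure, so that the groups overlapped only through the lowest Western mice. The difference was 0.69 (SE 0.19), a 1.61-fold level, under E171 (limma, adjusted p = 0.00365), and 0.57 (SE 0.19), 1.48-fold, without it (adjusted p = 0.0162).

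Cd79a, the partner chain, was not called. Its levels ran from -5.48 to -4.42 (median -4.66) in Western E171 mice, against -5.79 to -4.45 (median -4.73) in normal E171 mice. Without E171 they ran from -6.40 to -4.52 (median -5.19) in Western mice, against -5.85 to -4.46 (median -5.26) in normal diet mice, and the groups overlapped over most of their range. The diet differences were 0.15 (95% interval from the fit, -0.30 to 0.60) and -0.11 (-0.56 to 0.34), and neither was called. Some of these Cd79a values came from spots that were not well above background.

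The B cell surface genes gave mixed answers. Ms4a1, which encodes CD20, the target of B cell-depleting antibodies, averaged -2.71 ± 0.36 in Western E171 mice and -3.00 ± 0.36 in normal E171 mice, and -3.18 ± 0.59 in Western control mice and -3.63 ± 0.44 in normal control mice (SD, n = 8 each). The groups overlapped in both comparisons, and the differences of 0.29 (limma, adjusted p = 0.265) and 0.45 (adjusted p = 0.0836) did not pass the test. The other Ms4a1 probe lay on the opposite side of 0, at -0.40 (SE 0.18, adjusted p over all probes = 0.0586) and -0.31 (SE 0.18, adjusted p = 0.159), and was not called either.

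Cd180, a Toll-like receptor relative that pairs with the protein encoded by Ly86 on B cells, had the lowest adjusted p of the 8 members in both diet comparisons. Cd180 probe 2, which represents the gene, had levels from -0.63 to 0.20 (median -0.17) in Western E171 mice, against -1.53 to -0.29 (median -0.93) in normal E171 mice. In controls it ran from -1.11 to -0.39 (median -0.61) on the Western diet, against -1.78 to -1.18 (median -1.40) on the normal diet, with no overlap. The differences were 0.73 (SE 0.15, 1.66-fold, limma adjusted p = 1.08e-04) under E171 and 0.76 (SE 0.15, 1.69-fold, adjusted p = 8.93e-05) without it.

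The Cd180 probes did not give 1 answer. Probe 1 rose by 1.31 (SE 0.22) under E171 and 1.35 (SE 0.22) without it, and probe 3 by 1.34 (SE 0.29) and 1.39 (SE 0.29), all with adjusted p at or below 2.81e-04 over all probes. Probe 3 was well above background on 8 and 7 of 8 arrays in the Western E171 and Western control groups, but on 4 and 3 of 8 in the normal diet groups with and without E171, so its fold rests on dim values there. Probe 4, which lies farthest along the strand, was lower on the Western diet by the fit, with -0.37 (SE 0.12, adjusted p = 0.0116) in controls, and gave -0.11 (SE 0.12, adjusted p = 0.437) under E171. Its levels averaged -1.18 ± 0.27 in Western control mice and -0.82 ± 0.25 in normal control mice (SD, n = 8 each).

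For Cd22 the choice of probe decided the call. The repeat probe, which represents the gene, had levels of 0.33 to 0.74 (median 0.49) in Western E171 mice, against 0.12 to 0.89 (median 0.32) in normal E171 mice. In controls it had 0.19 to 0.44 (median 0.31) on the Western diet, against 0.21 to 0.57 (median 0.34) on the normal diet. All 4 groups overlapped, and the diet differences of 0.12 and -0.05 were not called. The tail probe had -3.72 to -2.92 (median -3.28) in Western E171 mice, against -5.20 to -3.67 (median -4.30) in normal E171 mice, and -4.20 to -2.94 (median -3.32) in Western control mice, against -4.70 to -3.85 (median -4.31) in normal control mice. It rose by 1.05 (SE 0.20, 2.07-fold, adjusted p over all probes = 6.63e-05) under E171 and by 0.88 (SE 0.20, 1.84-fold, adjusted p = 6.75e-04) without it. The remaining kept Cd22 probe gave -0.19 (SE 0.20) and -0.40 (SE 0.20), neither called.

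**Figure D1:**
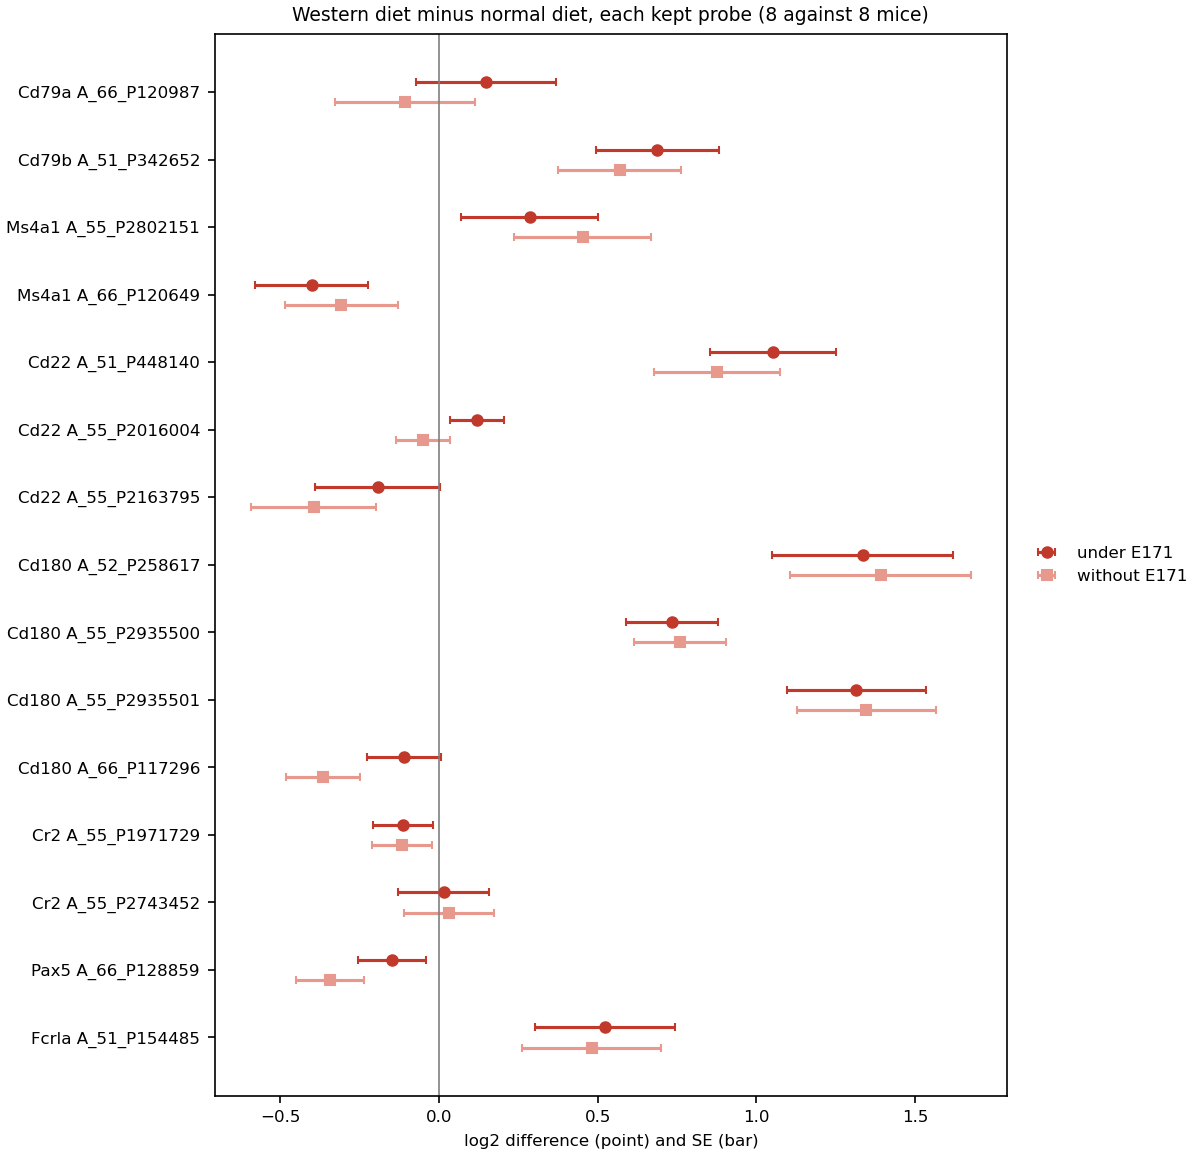
Difference in log2 level between Western and normal diet for each of the 15 kept probes of the B cell genes, under E171 (circles) and without E171 (squares), with the standard error from the fit as bars. The tail probe of Cd22 (A_51_P448140) and 3 of the 4 Cd180 probes lie right of 0 in both comparisons, while Cd180 probe 4 (A_66_P117296) and the Pax5 probe lie left of 0 in both.

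Of the remaining members, Cr2 was not called. The 2 kept Cr2 probes gave -0.11 and 0.01 under E171 and -0.12 and 0.03 without it, none called. Pax5, the factor that commits cells to the B lineage, averaged -2.88 ± 0.25 in Western E171 mice and -2.73 ± 0.17 in normal E171 mice, and -3.08 ± 0.23 in Western control mice and -2.73 ± 0.20 in normal control mice (SD, n = 8 each). The groups overlapped, and Pax5 fell by 0.34 (SE 0.11, limma adjusted p = 0.00923) in controls, while the -0.15 (SE 0.11, adjusted p = 0.24) under E171 was not called. Fcrla, an intracellular Fc receptor-like protein of B cells, averaged -3.98 ± 0.17 in Western E171 mice and -4.50 ± 0.63 in normal E171 mice (SD, n = 8 each), a difference of 0.52 (SE 0.22, adjusted p = 0.0454). Without the lowest mouse of the normal E171 group, replicate 6 at -5.94, the Fcrla difference was 0.32 (adjusted p = 0.139), and with normexp background correction it was -0.017 (adjusted p = 0.836). This call was kept on leaving out 21 of the 32 arrays in turn and lost on each of the other 11, which were 7 arrays of the Western E171 group and 4 of the normal E171 group. In controls Fcrla averaged -4.28 ± 0.47 on the Western diet and -4.76 ± 0.43 on the normal diet, a difference of 0.48 (adjusted p = 0.0713).

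Within the 4 array slides, each with 2 mice of every group, the diet difference was above 0 on 4 of 4 for Cd79b (0.49 to 0.92 under E171, 0.20 to 0.95 without), for the probe representing Cd180 (0.50 to 1.14 and 0.65 to 0.91) and for the Cd22 tail probe (0.70 to 1.42 and 0.21 to 1.25). For Pax5 in controls it was below 0 on 4 of 4 slides (-0.58 to -0.16).

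Counted by probe, 6 of the 15 kept member probes rose and none fell on the Western diet under E171, and 5 rose and 2 fell without it. Over all 35777 kept probes, 51.2% and 44.8% were called in either direction in these comparisons. The member counts include Cd180 probe 3, which passed the detection filter only through the Western diet groups. The 15 probes also include the remaining kept Cd22 probe, which passed it only through the normal E171 group. Nothing is read from these counts.

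**Figure D2:**
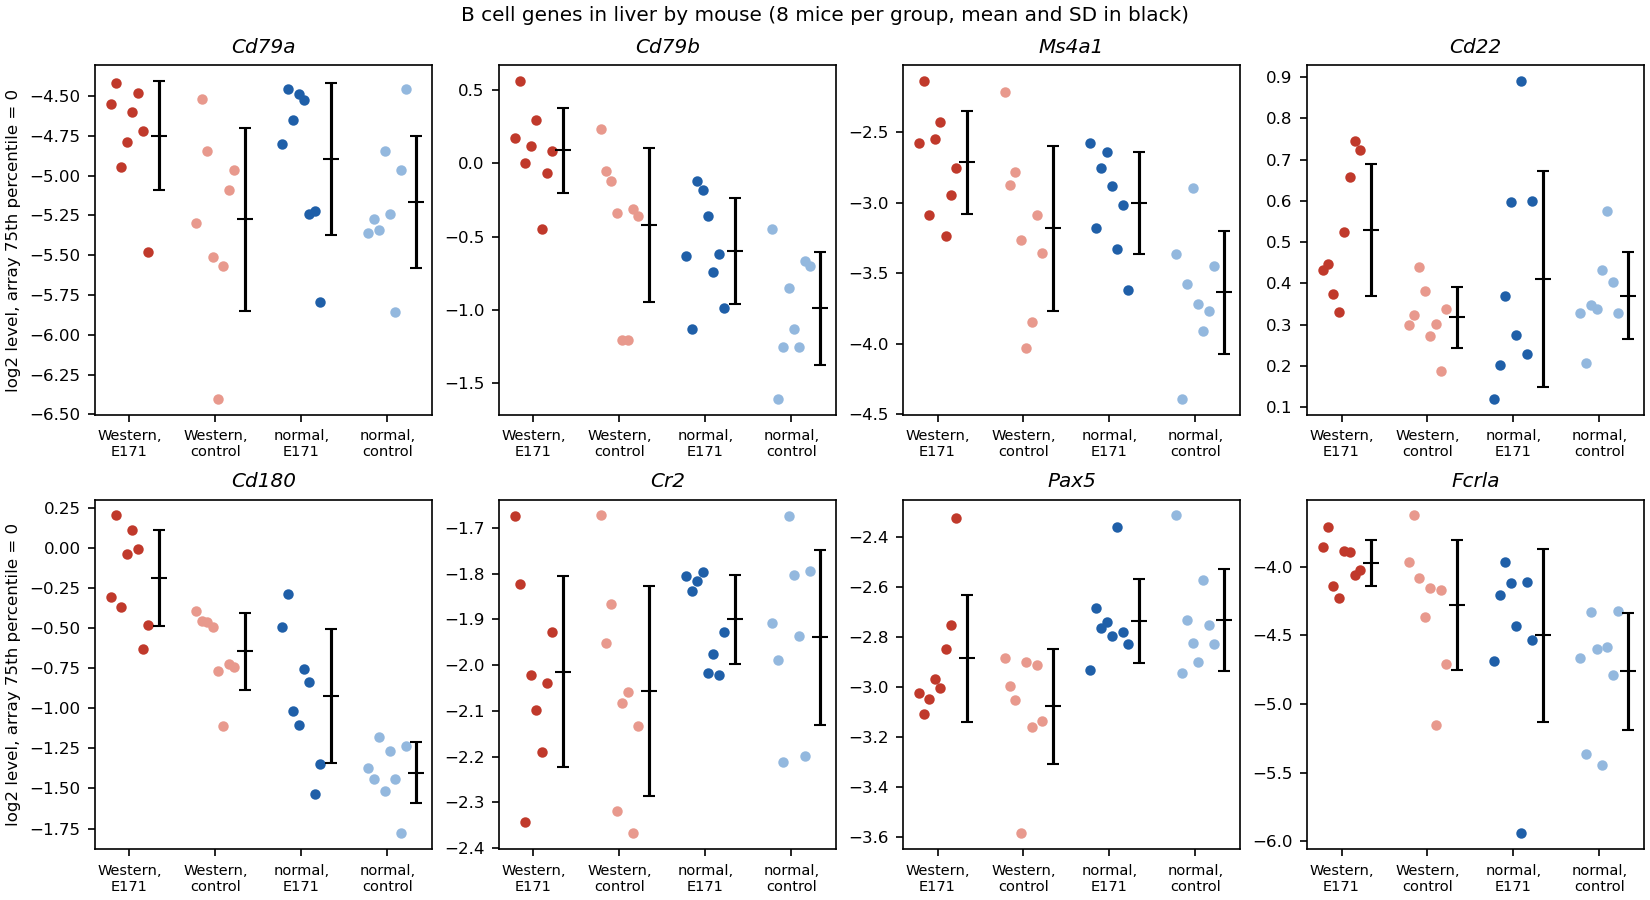
Log2 level of the probe representing each of the 8 tested B cell genes in every mouse (points), relative to the array's 75th percentile, with group mean and SD in black (8 mice per group). Cd79b and Cd180 are highest in the Western E171 group and lowest in the normal control group by mean, while the Cr2 groups overlap over most of their range.

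E171 was compared with control within each diet and averaged over both. All 8 members had a higher mean with E171 on the Western diet and 7 of 8 on the normal diet, against 54.3% and 53.3% of all genes. The members covary between mice, as described below, so these counts are not independent observations. They and the counts of unadjusted p below also include Cd79a, which passed the detection filter only through the Western E171 group, so nothing is read from them. No member passed the test within a diet. On the Western diet limma called 0.38% of all genes, and 5 of 8 members had an unadjusted p below 0.05, against 11.9% of all genes. On the normal diet limma called 0% of all genes (none of 23656), and 2 of 8 members had an unadjusted p below 0.05, against 4.05% of all genes.

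Averaged over both diets, Cd180 was the 1 member called, where 0.368% of all genes were called and 0.186% were called higher. Its representing probe differed by 0.47 (SE 0.10, 1.38-fold, limma adjusted p = 0.0331). With E171, 7 of 8 mice on each diet lay above the median of the controls on that diet, and 6 of 8 on each diet lay above the highest control, so that the groups overlapped. Within the slides the averaged difference ran from 0.26 to 0.72 and was above 0 on 4 of 4. The call rests on this probe. The other Cd180 probes gave 0.35 (SE 0.15) for probe 1, 0.41 (SE 0.20) for probe 3 and -0.01 (SE 0.08) for probe 4, none called, and the mean of the 4 probes gave 0.30 (adjusted p = 0.118). It was also lost in the deposited value table (0.41, adjusted p = 0.0598), without a filter on dim probes (adjusted p = 0.0628) and on leaving out any 1 of 9 arrays, with adjusted p up to 0.0616.

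Neither Ms4a1 nor Cd79b passed the test for E171 averaged over diets. Ms4a1 levels ran from -3.24 to -2.14 (median -2.66) in Western E171 mice, against -4.03 to -2.21 (median -3.18) in Western control mice. On the normal diet they ran from -3.62 to -2.58 (median -2.95) with E171, against -4.39 to -2.90 (median -3.65) without it. The averaged difference was 0.55 (SE 0.15, limma adjusted p = 0.103), with 7 of 8 Western and 8 of 8 normal diet E171 mice above the median of their controls, and it was 0.42 to 0.85 within the 4 slides. Over the other settings it ran from 0.22, with normexp background correction, to 0.57. It passed the test when 1 array, replicate 1 of the Western control group, was left out (0.62, adjusted p = 0.0322). The other Ms4a1 probe gave 0.18 (SE 0.13, limma adjusted p over all probes = 0.632), and -0.04 to 0.39 within the slides. The Cd79b difference averaged 0.45 (SE 0.14, adjusted p = 0.143), with 7 of 8 E171 mice above the control median on either diet, and was 0.26 to 0.66 within slides.

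Cd79a gave 0.40 (SE 0.16, adjusted p = 0.324), and Fcrla 0.28 (SE 0.16, adjusted p = 0.522). The difference was 0.13 (SE 0.06) for the Cd22 repeat probe and 0.05 (SE 0.14) for the Cd22 tail probe. It was 0.10 (95% interval -0.06 to 0.25) for Pax5 and 0.04 (-0.10 to 0.18) for Cr2. The median over the 8 members was 0.34, against 0.01 over all genes. Among them is Cd79a, which passed the detection filter only through the Western E171 group. The members covary and were chosen with earlier results known, so nothing is read from this median. With normexp background correction this median was 0.10, with Cd79a at 0.10 and Fcrla at 0.09, and over the other settings it reached 0.35 at most.

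The interaction asks whether the E171 difference depended on diet. None of the 8 members was called, none had an unadjusted p below 0.05, and limma called 0% of all 23656 genes, of which 5.17% had an unadjusted p below 0.05. The interaction was 0.12 (95% interval -0.44 to 0.68) for Cd79b, -0.17 (-0.79 to 0.45) for Ms4a1 and -0.02 (-0.44 to 0.39) for Cd180.

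**Figure D3:**
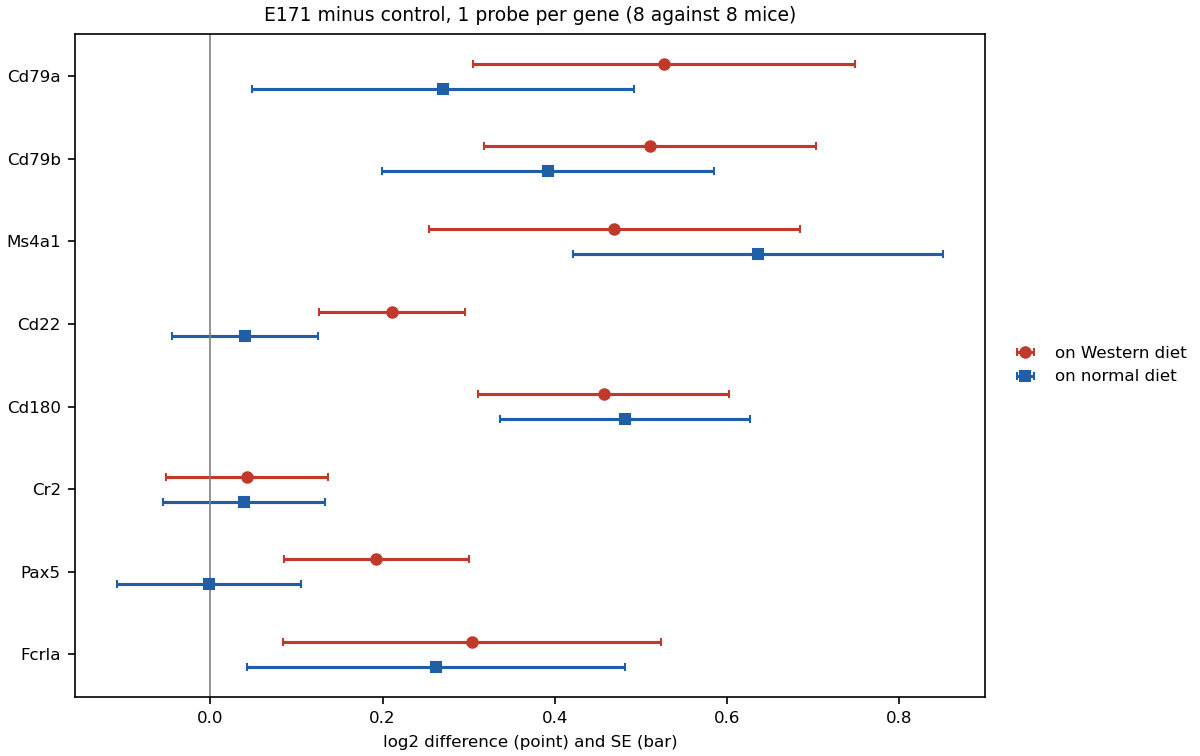
Difference in log2 level between E171 and control for the 8 tested B cell genes on the Western diet (circles) and on the normal diet (squares), with the standard error from the fit as bars. On the Western diet the points run from 0.04 for Cr2 to 0.53 for Cd79a, and on the normal diet the Pax5 point lies at 0. Cd79a passed the detection filter only through the Western E171 group, and none of these differences was called.

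Whether the members rose and fell together from mouse to mouse was asked after subtracting each group's mean, over the 32 mice. Of the 28 pairs of the 8 representing probes, 19 had r above 0, and 6 had a Benjamini-Hochberg adjusted permutation p below 0.05 (two-sided, 100000 resamples within groups). The share among pairs of all genes was not computed, so these counts are no result about the members as a set. Among the 28 pairs, Cd79b and Ms4a1 gave the highest, r = 0.84 and rho = 0.83, each with a permutation p of 1e-05, the smallest these resamples can give (adjusted p = 2.80e-04). Without the 2 mice farthest from the Cd79b median r was 0.80, with the slide mean removed 0.85, and within the 4 groups 0.94 on Western E171, 0.96 on Western control, 0.73 on normal E171 and 0.68 on normal control. Cd79b and Ms4a1 also varied with the log2 of the array's 75th percentile (r = 0.40 and 0.34). With summed marker levels, Cd79b gave 0.46 for macrophages and monocytes, -0.47 for hepatocytes and -0.60 for plasma cell and immunoglobulin genes. The part of these in the covariation was not tested.

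Ms4a1 also correlated with Cd79a (r = 0.55, rho = 0.55, permutation p = 0.00328 and 0.00270, adjusted p = 0.045 and 0.0252), Cr2 (r = 0.53, rho = 0.57, permutation p = 0.00482 and 0.00167, adjusted p = 0.045 and 0.0234) and Fcrla (r = 0.47, rho = 0.51, permutation p = 0.00857 and 0.00508, adjusted p = 0.048 and 0.0284). Without the 2 mice farthest from the median of the first gene of each pair, r was 0.39, 0.47 and 0.53. Cd79a and Cd79b gave r = 0.52 and rho = 0.53 (permutation p = 0.00694 and 0.00427, adjusted p = 0.048 and 0.0284), and 0.37 without 2 mice. The sixth pair was Cd22, by its repeat probe, with Pax5 (r = 0.42, permutation p = 0.0105, adjusted p = 0.0488; rho = 0.35, permutation p = 0.0475, adjusted p = 0.111), which fell to 0.26 without 2 mice and had r of -0.52 in Western control mice. Cd180, by its representing probe, gave 0.18 with Cd79b (rho = 0.22, permutation p = 0.333 and 0.241, adjusted p = 0.467 and 0.419). Within the groups its r differed, with 0.37 on Western E171, 0.85 on Western control, -0.25 on normal E171 and -0.23 on normal control.

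Probes of 1 gene also differed in this respect, given here as a description over the same 32 mice. With Cd79b, r was 0.68 for the Cd22 tail probe but -0.03 for the Cd22 repeat probe, and the 2 Cd22 probes gave 0.01 with each other. For Cd180, r with Cd79b was 0.61, 0.18, 0.42 and -0.03 for probes 1 to 4. Probes 1 and 2 of Cd180, which adjoin in the genome, gave 0.40 with each other. For Ms4a1, r with Cd79b was 0.84 for the representing probe but 0.13 (rho = -0.04) for the other probe. The 2 Ms4a1 probes gave 0.22 with each other, and the 2 kept Cr2 probes 0.56.

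**Figure D4:**
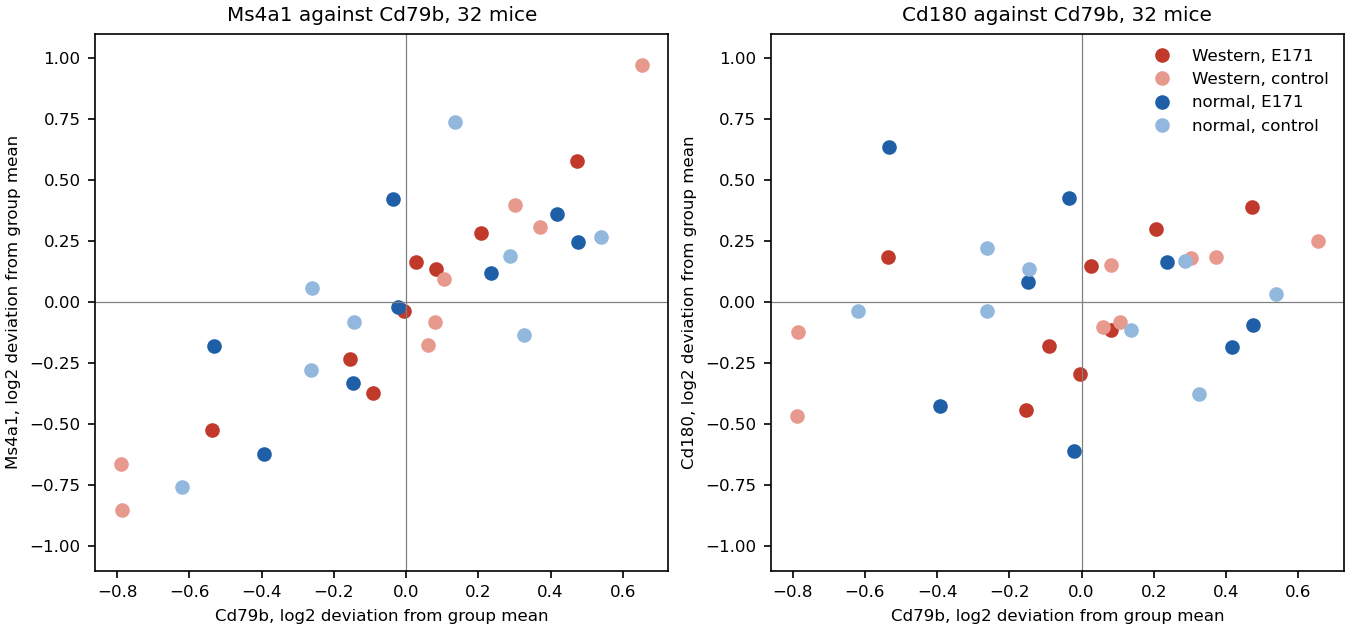
Deviation of each of 32 mice from its group mean (log2) for Cd79b on the horizontal axis, against Ms4a1 (left) and against the probe representing Cd180 (right), coloured by group. By their representing probes, Ms4a1 follows Cd79b along a line (r = 0.84). For Cd180 r was 0.18 over all mice, but ran from -0.25 on normal E171 to 0.85 on Western control.

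The 10 genes outside the members whose pattern over the 32 mice was most like the mean of the 8 members, by Pearson r, included Fcmr (0.82), the receptor for immunoglobulin M. Fcer2a (0.71), the low-affinity immunoglobulin E receptor of B cells, Pou2af1 (0.69), a B cell transcriptional coactivator, and the chemokine receptor Ccr6 (0.67) were also among them, as were Ripor2 (0.64), 3110027N22Rik (0.63), the survival receptor Tnfrsf13c (0.61), Rin2 (0.61) and Il4i1 (0.58). With Cd79b alone, r was highest for Fcmr (0.89) and reached 0.84 for Ms4a1, and with the probe representing Cd180 alone it was highest for Zscan5b (0.72), Olfr885 (0.72) and Odc1 (0.71). These genes were ranked by r among the 18047 tested genes with a symbol, as a description with no test.

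The averaged E171 differences were 0.46 (SE 0.17) for Fcmr, 0.56 (SE 0.14) for Fcer2a and 0.39 (SE 0.14) for Pou2af1, with limma adjusted p of 0.284, 0.0582 and 0.272. None of these 3 passed the test, and Ripor2 did (0.52, adjusted p = 0.0449).

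A further list of 29 B cell-expressed genes, all of them tested, was read beside the members. On the Western diet 18 rose and 2 fell under E171, where 22.2% of all genes rose and 31% fell. Without E171, 17 rose and 1 fell, where 18.5% of all genes rose and 28.7% fell, shares that also stand beside the list counts below. The median differences of the 29 were 0.58 and 0.48, against -0.10 over all genes in both comparisons. Under the other scalings, filters and blocks the counts that rose were 15 to 18 and 12 to 18. The largest changes under E171 were in Cd83 (1.90), an activation marker, Cd24a (1.75), Ly86 (1.60), which encodes the partner of Cd180, and Cd72 (1.60), an inhibitory receptor. Without E171 they were in Cd83 (1.74), the adaptor Blnk (1.46), Cd72 (1.43) and Ly86 (1.39). Macrophages and dendritic cells also express several of these genes. For E171 averaged over diets, none of the 29 was called, and the median was 0.04, with Cd74 at 0.13, Tlr9 at -0.04 and Lyn at -0.01. Over the other settings the count called higher for this average was 0 to 1.

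Plasma cell and immunoglobulin genes, of which 10 of 20 listed were tested, did not move in 1 direction. Under E171, 2 rose and 3 fell on the Western diet, and without it 2 rose and 2 fell. Prdm1, a plasma cell regulator that other cells use too, rose by 1.42 and 1.21, while Xbp1, which hepatocytes also express, fell by 0.75 and 0.54 and Pim2 fell by 0.81 and 0.78. Derl3 fell by 2.69 under E171, and Irf4 rose by 0.75 without it. Jchain, the joining chain of secreted immunoglobulin, gave 0.08 and -0.01, neither called. For E171 averaged over diets none of the 10 was called.

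Of 17 tested genes for recruitment and survival of B cells, 12 rose and 3 fell on the Western diet under E171, and 9 rose and 4 fell without it. Over the other settings 7 to 12 and 6 to 10 rose. Cxcl13, the chemokine that draws B cells into follicles, fell by 2.54 (SE 0.60, limma adjusted p = 6.93e-04) under E171 and by more without it (difference -3.16, SE 0.60, adjusted p = 7.40e-05). Cxcr5, its receptor, rose by 0.60 (adjusted p = 0.0381) under E171 and gave 0.45 (adjusted p = 0.13) without it. Cxcr4, the receptor of many leukocytes for Cxcl12, rose by 2.11 and 2.25, Ccr7 by 1.67 and 1.50, and Il7r by 1.25 and Tnfrsf13b by 1.31 in the comparison where each stood among the 4 largest. For E171 averaged over diets none of the 17 was called.

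Markers of other cells moved with diet beside the B cell genes. Of 13 macrophage and monocyte markers 10 rose and none fell in either diet comparison, and their summed linear level (array 75th percentile at 1) was 167 to 362 in Western E171 mice and 121 to 319 in Western control mice, against 82.3 to 159 in normal E171 mice and 60.4 to 203 in normal control mice. Of 7 pan-leukocyte markers 6 rose and 1, Ptprc, fell, and the sums were 29.7 to 55.6 and 24.7 to 46.2 in Western E171 and control mice, against 20.2 to 29.2 and 18.5 to 28.0 in normal E171 and control mice. Of 6 conventional dendritic cell markers 5 rose in each comparison. Of 14 T and NK cell markers 8 rose and 2 fell under E171 and 5 rose and 2 fell without it. Their sum, which weighs bright probes most, was lower on the Western diet under E171, at 39.4 to 55.1 against 58.1 to 80.6. In controls it was 37.9 to 78.2 on the Western diet (median 44.8) against 58.0 to 72.9 on the normal diet (median 68.1). Of 8 hepatocyte markers 7 fell under E171 and 8 without it, and over the other settings 5 to 8 and 3 to 8 fell. Of 6 plasmacytoid dendritic cell markers 3 rose and 1 fell under E171 and 2 rose and 1 fell without it, of 6 neutrophil markers 4 rose and 2 fell and 2 rose and 1 fell, and of 5 red blood cell markers none was called, although 3 rose under E171 with quantile normalization and in the deposited value table. The median neutrophil sum was 125 in Western E171 mice against 140 in normal E171 mice, and 117 against 134 in controls. The median plasmacytoid dendritic cell sum was likewise 317 against 348, and 329 against 352. For conventional dendritic cells it was higher on the Western diet, at 66.6 against 24.6, and 67.4 against 23.7. These sums also weigh bright probes most. The median log2 difference over the markers was 1.74 under E171 and 0.89 without it for neutrophils. For plasmacytoid dendritic cells it was 0.10 and 0.16. None of these 8 lists had a gene called for E171 averaged over diets. Their part in the levels of the B cell genes was not tested.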

How the data were processed

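Liver RNA of 32 mice was measured on 1-colour arrays with 62976 spots, 1 array per mouse. The authors deposited scanner files of linear spot intensity made with Agilent Feature Extraction 10.10.1.1, per the submitters' processing notes, background-subtracted and detrended per the file headers, with a flag (a score of 0 or 1) for spots well above background. They also deposited a table of log2 values for 36695 probes, for which the submitters' processing notes name limma. Its column medians were 7.12 to 7.18, its lowest correlation with the scanner values was 0.989, and no source used here states how it was centred or background-corrected.

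Spots of a probe were averaged without outlier flags, log2 intensity was taken relative to each array's 75th percentile (an intensity of 175 to 342), and probes were kept if well above background on at least 6 of 8 arrays of at least 1 group. The number of arrays limits the precision. The brightest kept probe stood for a gene, with old gene names updated through RefSeq tables. limma 3.58.1 in R 4.3.3 fitted 4 group means to 23656 genes, with Benjamini-Hochberg adjustment over all genes and a threshold of 0.05, and the procedure was tested on simulated data. Named are all 9 members with every probe, the 10 genes of most like pattern (1 is not reported here), and from each list up to 4 called genes by size or, with none called, 3 by signal. Other genes named (Alb, Apoa1, Cps1, Jchain, Cxcr5 and, for the E171 difference, Fcmr, Fcer2a and Pou2af1, and Ptprc) were added as context after their values were seen. Members and lists were chosen with earlier results of these data known. Alternatives covered blocks, background correction, scaling, filters, probe choice, the deposited table and leaving out arrays.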

Additional observations from a re-analysis of the deposited data

Results flagged for a closer look

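Over the 15 kept probes of the B cell genes and 4 groups, 60 sets of 8 mice were examined for a mouse far from the other 7, and 5 were found, where chance flags about 1 in 20. The lowest Fcrla level of the normal E171 group, in replicate 6, was -5.94, and that group's next lowest mice lay well above it. Cd180 probe 3 had a level of -5.82 in replicate 5 of the Western control group, below the other 7 mice. The Pax5 octapeptide probe accounted for 3 of the 5, with a highest level of -2.33 in replicate 8 of the Western E171 group, a lowest level of -3.58 in replicate 4 of the Western control group, and a highest level of -2.36 in replicate 6 of the normal E171 group. The Fcrla call by diet under E171 was lost without the first of these mice and also without any 1 of 10 other mice, as given above. The Pax5 call by diet in controls was kept on leaving out any 1 of the 32 arrays.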

How the results depend on the processing

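Over 11 other fits, scalings, filters and probe choices, the diet calls of Cd79b and Cd180 and the fall of Pax5 in controls kept direction and threshold, with Cd79b at 0.54 to 0.74 under E171 and 0.41 to 0.61 without it. Fcrla under E171 kept its call in 4 of 10 and turned to -0.017 with normexp background correction. The 1 member called for E171 averaged over diets became 0 without a filter on dim probes, with the mean of a gene's probes and in the deposited table. Leaving out each array, the counts of members called ran from 0 to 2 for the E171 average, 3 to 5 for diet without E171 and 2 to 3 for diet under E171, and stayed at 0 elsewhere. The Cd180 E171 call was kept on 23 of 32 such omissions and lost without replicates 2, 4 or 5 of Western E171, 5, 6 or 7 of Western control, 1 or 5 of normal E171, or 7 of normal control.

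With a replicate block the counts of members were 3, 3, 0, 0, 1 and 0 as before. The 48 same-numbered pairs had correlations of -0.298 to 0.571 (median 0.0686), 23 of them over 0.1. Other-numbered pairs had a median of -0.0184. Whether the numbers pair the mice cannot be decided from these values, and the main fit took the mice as unpaired. Over all genes the block moved the E171 calls on the Western diet to 1.9 times the 90 without it, and the average to 149, against 87. Fitting only the groups compared gave 38 calls, no filter 60 and 43. The share of diet calls that were higher was 41.7% under E171 and 39.2% in controls, against 51.1% and 54.4% in the deposited table. The limits are dim spots of Cd79a, Fcrla, the Cd22 tail probe and the remaining kept Cd22 probe, not well above background on some arrays. Further limits are Cd180 probe 3, dim on the normal diet, and probes of 1 gene that disagree. The causes were not tested.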
